A study of Apis mellifera with 12 samples.

Results

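A set of 7 transcription factors known from the visual system of flies was followed in the brains of honeybee (*Apis mellifera*) queens, foragers and nurses. The genes were listed by name, with earlier results of these data known, and they make up 7 of the 12292 genes of the single-cell tables and 7 of the 11345 genes of the bulk table. They are *bsh* (LOC724801), *hth* (LOC552079), *eya* (LOC412528), *Lim1* (LOC100577751), *Lim3* (LOC410658), *vsx1* (LOC411315) and *svp* (LOC408872). In *Drosophila*, the optic lobe holds many neuron types, and each is set up by a combination of such factors, which also select the genes for making and packing a neurotransmitter. Brain-specific homeobox (*bsh*) and the homeobox protein homothorax (*hth*) are found together in a columnar neuron of the fly medulla that releases acetylcholine, while *Lim3*, a LIM homeobox gene, is tied to neurons that release GABA. *eya* encodes a cofactor of the eye-forming network, *Lim1* a second LIM homeobox protein, *vsx1* a homeobox protein that marks a region of the fly optic lobe primordium, and *svp* an orphan nuclear receptor of the COUP type that times the output of fly neural stem cells.

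Whole brains of adult females of 3 kinds were collected, namely mated queens, which had been reared artificially and inseminated, and foragers and nurses, the 2 kinds of workers, which were taken from the same colony, the foragers carrying pollen and the nurses tending larvae. For single cells, 4 to 5 brains were pooled and dissociated with papain for each 10x library, and for bulk RNA, 5 brains were pooled for each library. Each kind of bee had 2 libraries per assay, which the study calls independent biological replicates for the single cells and replicates for the bulk RNA, so that every value below rests on 6 single-cell and 6 bulk libraries. Bees for the single-cell libraries were dissected under carbon dioxide anesthesia. No line, allele or other drug was involved. The single-cell tables count unique molecular identifiers (UMIs), each of which marks 1 captured RNA molecule, and the bulk table holds estimated read counts.

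After the limits on cell quality, 115169 cells remained, with 16761 to 20988 per library and a median of 4532 to 5729 UMIs per cell. The queen libraries were deeper, and the upper limit on UMIs, set separately for each kind of bee, came to 23474 for queens, 16092 for foragers and 15838 for nurses. The bulk libraries held 13135057 to 15177035 counts. The neuronal RNA-binding protein gene *elav* had 3241 to 3906 CPM (counts scaled to one common library total) in the single-cell sums, and the glial homeobox gene *repo* had 49.7 to 124 CPM, so the expected cell classes of a brain were present.

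The 7 genes differed widely in how much of their RNA was captured and in how it was spread over cells. They lie on 7 different linkage groups of the Amel_HAv3.1 assembly: *bsh* on linkage group 12 (7915515 to 7923213), *hth* on linkage group 5 (7613463 to 8093347), *eya* on linkage group 1 (5041799 to 5054261), *Lim1* on linkage group 2 (12510435 to 12529550), *Lim3* on linkage group 16 (6685594 to 6724151), *vsx1* on linkage group 9 (9630658 to 9684832) and *svp* on linkage group 6 (15129832 to 15202295). Over all kept cells, 102972 UMIs were counted for *vsx1*, 47242 for *hth*, 29601 for *eya*, 15379 for *svp*, 13844 for *Lim3*, 6392 for *bsh* and 613 for *Lim1*. Cells with 2 or more UMIs of a gene, called its cells from here on, numbered 21600 for *vsx1*, 7508 for *hth*, 4786 for *eya*, 2882 for *Lim3*, 2300 for *svp*, 1129 for *bsh* and 23 for *Lim1*. The RNA of *hth* was held by few cells with many copies: cells with 5 or more UMIs carried 48.3 to 63.5% of its UMIs in a library, and the fullest cell had 45. The same share was 22.1 to 49.8% for *vsx1*, 6.27 to 23.5% for *bsh*, 4.94 to 16.1% for *Lim3*, 1.21 to 20.8% for *svp* and 0.112 to 1.37% for *eya*. Had the UMIs of *eya* been dealt out to cells in proportion to their total UMIs, nearly as many cells would have had 2 or more, since the observed number was 1.18 to 1.28 times that number in the 6 libraries. For *bsh* the observed number was 3.82 to 7.77 times that number, for *Lim3* 2.76 to 3.12 times and for *svp* 1.67 to 2.26 times. For *hth* it was 0.690 to 1.06 times and for *vsx1* 0.742 to 0.979 times, so the ratio can be low for a gene whose UMIs lie in few cells and gives no order of the members. *Lim1*, with 2 to 5 cells per library, is described by its level only.

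In bulk brain RNA, *svp* was higher in queens than in workers, and no other member was called. The bulk level of *svp* was 196 and 170 CPM in queens, against 57.0 and 65.0 CPM in foragers and 36.3 and 53.1 CPM in nurses. Both queen libraries stood far above all 4 worker libraries. The mean was 183 ± 18.4 CPM in queens (SD, n = 2) and 52.8 ± 12.1 CPM in workers (SD, n = 4), a log2 fold change of 1.82 with a standard error of 0.16 and an adjusted p of 2.73e-04 in edgeR's quasi-likelihood test with Benjamini-Hochberg adjustment. Against foragers alone the log2 fold change of *svp* was 1.60 (SE 0.20, adjusted p 0.00181 by edgeR), and against nurses alone it was 2.04 (SE 0.20, adjusted p 7.10e-04 by edgeR). A call in bulk required that the adjusted p was below 0.01 and that the log2 fold change exceeded 1 in either direction. By that rule *svp* was the 1 member of 7 called between queens and workers, where 9.71% of the 9932 genes tested were called, and also the 1 member called against foragers (8.30% of genes) and against nurses (7.59% of genes). The call against foragers was lost without forager replicate 1 (adjusted p 0.0190 by edgeR) and without forager replicate 2 (adjusted p 0.0141 by edgeR). In bulk RNA, more cells that express a gene and more RNA per cell cannot be told apart.

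The bulk levels of 5 other members were, in both queen libraries, below those of every worker library, but none of them passed the threshold. That is 5 of 7 members, where 25.6% of all genes tested lay lower in queens without overlap and 24.3% lay higher, as *svp* did. *Lim1* had 2.76 and 1.16 CPM in queens, against 5.25 and 5.44 CPM in foragers and 5.80 and 5.18 CPM in nurses. *bsh* had 1.80 and 2.26 CPM in queens, against 4.08 and 5.79 CPM in foragers and 3.41 and 3.73 CPM in nurses. *hth* had 9.44 and 6.40 CPM in queens, against 14.6 and 20.1 CPM in foragers and 10.4 and 13.7 CPM in nurses. In each of these 3 genes queens and workers did not overlap. The bulk level of *eya* was 32.4 and 18.7 CPM in queens, against 45.9 and 38.2 CPM in foragers and 44.6 and 36.0 CPM in nurses. *vsx1* had 6.55 and 5.23 CPM in queens, against 7.97 and 7.81 CPM in foragers and 9.11 and 11 CPM in nurses. Both were again lower in queens without overlap. The log2 fold changes between queens and workers were -1.45 (SE 0.38) for *Lim1*, -1.03 (SE 0.31) for *bsh*, -0.86 (SE 0.25) for *hth*, -0.68 (SE 0.23) for *eya* and -0.59 (SE 0.21) for *vsx1*, with adjusted p-values by edgeR from 0.0273 for *Lim1* to 0.0760 for *vsx1*. DESeq2 called *Lim1* (-1.44, adjusted p 0.00265). The pan-neuronal gene *elav* also lay lower in queens in bulk, with 22.7 and 11.6 CPM in queens, against 38.0 and 44.6 CPM in foragers and 30.7 and 50.2 CPM in nurses (log2 fold change -1.24, adjusted p 0.0220 by edgeR), and its part in the values of these 5 members was not tested.

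*Lim3* ran the other way but its groups overlapped. Its bulk level was 7.51 and 4.78 CPM in queens, against 3.21 and 3.07 CPM in foragers and 4.97 and 2.74 CPM in nurses, since nurse replicate 1 lay above queen replicate 2. The log2 fold change was 0.83 (SE 0.33, adjusted p 0.0960 by edgeR). Over the 7 members the median log2 fold change between queens and workers was -0.68, beside a median of -0.01 over all genes tested. The members with the fewest counts were *bsh*, with 28 to 83 counts per library, *Lim1*, with 18 to 85, and *Lim3*, with 36 to 117, and these 3 also had the largest standard errors.

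**Figure D1:**
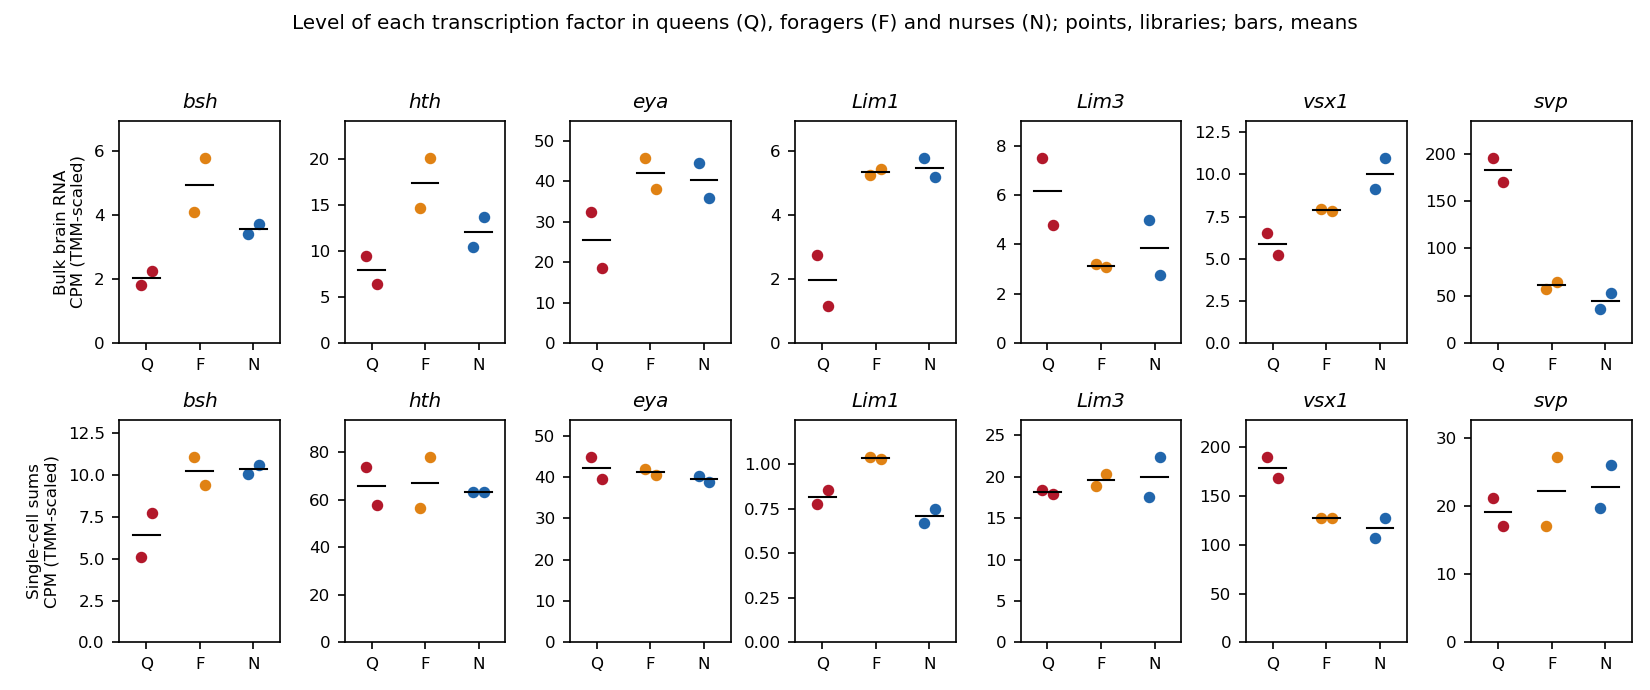
Level in CPM (vertical axes, scaled with TMM factors) of each member in bulk RNA (top) and in sums of all kept single cells (bottom) for queens (Q), foragers (F) and nurses (N). Points are libraries and bars are means of 2 libraries. Bulk *svp* was 196 and 170 CPM in queens, above every worker library, while its single-cell sums overlapped, and *vsx1* was higher in queens in the single-cell sums and lower in bulk.

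No member was called between foragers and nurses in bulk, where 0.0101% of genes were, and none had an unadjusted p under 0.05 there. The log2 fold changes ran from -0.36 for *vsx1* to 0.52 for *hth*. Forager libraries lay above nurse libraries without overlap for *bsh*, *hth* and *svp* and below them for *vsx1*, with adjusted p-values by edgeR of 0.385 to 0.589 for these 4 genes. Over all genes tested, foragers lay above nurses without overlap in 24.5% and below in 22.6%, so that such an order of 2 libraries against 2 is common.

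The sums of all kept single cells gave another picture, in which *vsx1* was the member that set queens apart. The *vsx1* sums were 190 and 168 CPM in queens, against 127 and 127 CPM in foragers and 107 and 127 CPM in nurses. The queen libraries lay above all worker libraries, as they did for 25.2% of genes tested, with means of 179 ± 15.9 CPM in queens (SD, n = 2) and 122 ± 10.1 CPM in workers (SD, n = 4). The log2 fold change was 0.56 (SE 0.09, adjusted p 0.00345 by edgeR), just past the 0.5 in size that the call asks for in single-cell sums. It was the 1 member called between queens and workers, where 15.4% of the 11158 genes tested were called, and the 1 member called between queens and nurses (log2 fold change 0.62, adjusted p 0.00598 by edgeR), where 12.1% of genes were called. The call against nurses was lost without queen replicate 1, either nurse replicate or either forager replicate (adjusted p 0.0105 to 0.0304 by edgeR). Against foragers no member was called, with 11.9% of all genes called, and *vsx1* had a log2 fold change of 0.50 (adjusted p 0.0119 by edgeR). The call between queens and workers was lost on leaving out queen replicate 1 (adjusted p 0.0235), nurse replicate 1 (log2 fold change 0.50), forager replicate 1 (adjusted p 0.0119) or forager replicate 2 (adjusted p 0.0113, all by edgeR).

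The sums of *bsh* were 5.08 and 7.75 CPM in queens, against 11.1 and 9.40 CPM in foragers and 10.1 and 10.6 CPM in nurses. They were lower in queens without overlap, as in bulk and as for 26.1% of genes tested, with a log2 fold change of -0.68 (SE 0.20, adjusted p 0.0288 by edgeR) that did not pass the threshold. The other 5 members overlapped between queens and workers, with log2 fold changes of 0.02 for *hth*, 0.07 for *eya*, -0.07 for *Lim1*, -0.12 for *Lim3* and -0.23 for *svp*. The *svp* sums were 21.2 and 17.0 CPM in queens, against 17.1 and 27.2 CPM in foragers and 19.7 and 26.0 CPM in nurses, so the difference seen in bulk was not seen in the sums of captured cells (SE 0.21, adjusted p 0.405 by edgeR). *hth* had 73.9 and 57.8 CPM in queens, against 56.3 and 78.0 CPM in foragers and 63.2 and 63.2 CPM in nurses. *Lim3* had 18.4 and 17.9 CPM in queens, against 18.9 and 20.3 CPM in foragers and 17.6 and 22.4 CPM in nurses. Neither order separated the kinds of bee. *eya* had 44.9 and 39.6 CPM in queens, against 41.9 and 40.6 CPM in foragers and 40.2 and 38.7 CPM in nurses. *Lim1*, near the limit of capture, had 0.776 and 0.856 CPM in queens, against 1.04 and 1.03 CPM in foragers and 0.668 and 0.750 CPM in nurses. Between foragers and nurses no member was called, with 0.0807% of all genes called, and the largest log2 fold change was 0.54 for *Lim1* (SE 0.26, adjusted p 0.254 by edgeR).

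The share of cells that reached 2 or more UMIs was counted in cells as captured and again in cells thinned to 2000 UMIs. For *vsx1* the share was 26.1 and 23.5% in queens, against 16.7 and 14.9% in foragers and 14.0 and 17.9% in nurses. After each cell had been thinned to 2000 UMIs it was 7.19 and 6.0% in queens, against 3.64 and 3.68% in foragers and 3.15 and 4.39% in nurses. The queen libraries stayed above the workers in both, but 2 libraries against 4 allow no p below 0.067 in a two-sided exact permutation test, and both comparisons gave that p (0.233 and 0.467 after adjustment over the 7 members). For *eya* the share was 5.78 and 5.29% in queens, against 3.91 and 3.08% in foragers and 3.56 and 3.48% in nurses, with the same p of 0.067 by the exact permutation test. Thinned, it was 0.621 and 0.591% in queens, against 0.534 and 0.448% in foragers and 0.576 and 0.536% in nurses (exact permutation p 0.200), and its CPM overlapped, so no order is read from the unthinned share. Thinning left out 440 and 1703 cells of the queen libraries, 299 and 0 of the forager libraries and none of the nurse libraries for want of UMIs. For *bsh* the share was 0.673 and 1.11% in queens, against 1.08 and 0.905% in foragers and 1.05 and 1.10% in nurses. For *hth* it was 7.38 and 5.52% in queens, against 5.65 and 7.27% in foragers and 6.68 and 6.39% in nurses. Both overlapped. The share of *Lim3* cells was 2.96 and 2.9% in queens, against 2.36 and 2.05% in foragers and 1.99 and 2.80% in nurses, and that of *svp* cells was 2.32 and 2.18% in queens, against 1.28 and 2.02% in foragers and 1.70 and 2.47% in nurses. Thinned, the *svp* groups also overlapped and *Lim3* did so too (exact permutation p 0.733 and 0.467).

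Cells rich in a marker of another class gave a background for these shares. Between 362 and 1106 cells per library had 3 or more UMIs of *repo*, with a median of 4197 to 5249 UMIs, near that of all cells. In these *repo*-rich cells *bsh* reached 2 UMIs in 0.159 to 0.876% and *Lim3* in 0.795 to 2.06%, less than in all kept cells of the same library. *eya* reached 2 UMIs in 7.60 and 6.63% of them in queens, 3.36 and 3.62% in foragers and 4.61 and 5.59% in nurses, and in 5 of 6 libraries this was above its share of all kept cells (3.08 to 5.78%). *vsx1* reached 2 UMIs in 8.43 to 16.4% of *repo*-rich cells. *hth* did so in 16.4 and 18.8% of them in queens, 8.03 and 11.8% in foragers and 9.86 and 10.9% in nurses, above its share of all cells in each library, and so did *svp*. Hence *repo*-rich cells are no background for *hth*, *svp* and *eya*. The cells of a library with the most *PLCe*, a gene of mushroom body Kenyon cells, served as a second background: in the 10% of cells with the most *PLCe* per UMI, *hth* reached 2 UMIs in 0.700 to 1.79%, *svp* in 0.0597 to 0.613%, *Lim3* in 0.0510 to 0.179% and *bsh* in 0 to 0.102%. All 4 were far below their shares of all cells, although these cells were deeper, with a median of 5627 to 7529 UMIs. This held for the *PLCe*-rich cells only, a set added after seeing the data. In cells with 3 or more UMIs of both *PLCe* and *mub*, the rule fixed at first, the shares were near those of all kept cells. They were 4.96 to 6.86% for *hth* (5.52 to 7.38% in all kept cells), 2.09 to 3.09% for *Lim3* (1.99 to 2.96%) and 1.33 to 2.34% for *svp* (1.28 to 2.47%). For *bsh* the means were 0.914% in queens and 1.09% in workers (0.891 and 1.03%). *eya* reached 2 UMIs in 4.63 and 5.01% of the *PLCe*-rich cells in queens, 3.07 and 1.95% in foragers and 3.12 and 2.30% in nurses, below its share of all kept cells in each library but by less. *vsx1* stood alone, reaching 2 UMIs in 44.2 and 44.6% of the *PLCe*-rich cells in queens, 38.0 and 32.5% in foragers and 32.7 and 37.7% in nurses, more than in all kept cells of each library.

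**Figure D2:**
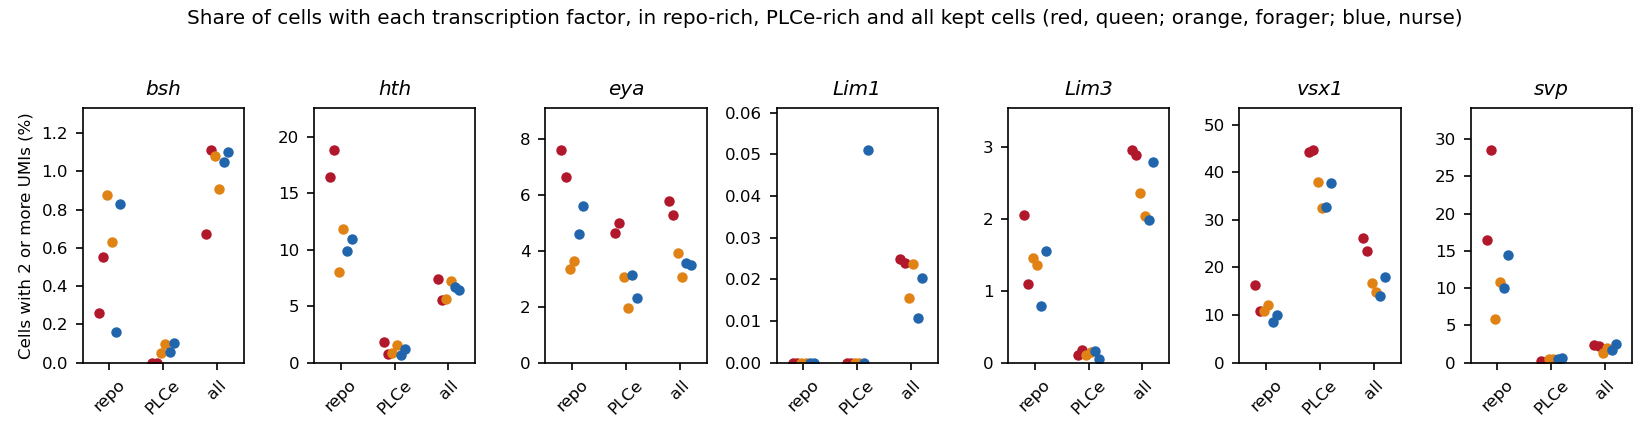
Share of cells (vertical axes, %) with 2 or more UMIs of each member among cells with 3 or more *repo* UMIs, the 10% of cells with the most *PLCe* per UMI, and all kept cells. Each point is a library of queens (red), foragers (orange) or nurses (blue). *vsx1* is most frequent in the *PLCe*-rich cells, at 32.5 to 44.6%, while *hth* and *svp* are most frequent in the *repo*-rich cells.

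The cells of each member were then set against the cells of the same library in which the member had no UMI, with the library as a block and the same edgeR test and threshold as for single-cell sums. The measured genes other than the member itself did not choose the cells, but cells with 2 UMIs of any gene tend to be deeper, so each call was also made against cells of matched depth, and changed calls among the members, the transcription factors and the markers described are named. The 6 transmitter genes followed were *ChAT* (choline acetyltransferase, which makes acetylcholine) and *VAChT* (which packs it), *VGlut* (which packs glutamate), *Gad1* (glutamate decarboxylase, which makes GABA) and *VGAT* (which packs it), and *Vmat* (which packs monoamines).

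The *bsh* cells carried the acetylcholine genes. *VAChT* was at 442 and 466 CPM in the *bsh* cells of queens, 785 and 681 CPM in those of foragers and 622 and 502 CPM in those of nurses, whereas all kept cells of a library had 177 to 304 CPM. Every library showed the excess, and the log2 fold change over cells without *bsh* was 1.45 (SE 0.06, adjusted p 2.38e-12 by edgeR). *ChAT* was higher too, with 176 to 261 CPM in *bsh* cells and 87.7 to 138 CPM in all cells (log2 fold change 0.92, SE 0.07). *Gad1* was lower, with 53.9 to 82.6 CPM in *bsh* cells and 122 to 169 CPM in all cells (log2 fold change -0.94, SE 0.09), and the other 3 transmitter genes did not pass the threshold. In *bsh* cells 4.97% of the 10470 genes tested were called higher and 11.3% lower. Among the other members *hth* was higher by a log2 of 2.51 (SE 0.13), and *vsx1* (-1.96), *Lim3* (-1.66) and *svp* (-0.94) were lower. The *bsh* cells held less *PLCe* (log2 fold change -2.08) and less *repo* (-1.22) than other cells. The Kenyon cell gene *mub* was reduced less, at 910 to 1384 CPM, 0.560 to 0.813 times its level in all kept cells of the same library.

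Of 14 further transcription factors known from the fly optic lobe, 2 were higher in *bsh* cells and 9 lower. The higher ones were the forkhead gene sloppy paired (LOC724740, log2 fold change 2.82) and the homeobox gene *cut* (LOC551460, 2.41), and the lower ones included both Pax-6 genes (LOC724146, -2.06, and LOC724238, -1.71) and *prospero* (-1.23). The 5 leading genes of the *bsh* cells, among 307 that were called higher, were higher in all 6 libraries and averaged 50 CPM or more in these cells, were LOC727170 (annotated as eisosome protein SEG2), LOC113218540, LOC410563, LOC725148 and LOC552195, with log2 fold changes of 3.99, 3.92, 3.64, 3.50 and 2.80. LOC727170 had 210 to 441 CPM in *bsh* cells and 14.1 to 36.9 CPM in cells without *bsh*. The 2 ranges lay far apart in these 6 libraries.

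The *hth* cells, by contrast, carried more *Gad1*, *VGAT* and *Vmat* RNA than other cells. *Gad1* was at 370 and 322 CPM in the *hth* cells of queens, 261 and 353 CPM in those of foragers and 191 and 215 CPM in those of nurses, and *Vmat* was at 128 and 170 CPM in those of queens, 99.5 and 86.2 CPM in foragers and 93.3 and 82.3 CPM in nurses. All kept cells had 122 to 169 CPM of *Gad1* and 37.9 to 67.0 CPM of *Vmat*, so that every library showed an excess of both. The log2 fold changes were 1.23 (SE 0.15) for *Gad1*, 1.32 (SE 0.20) for *Vmat* and 0.59 (SE 0.05) for *VGAT*, with adjusted p-values by edgeR of 1.69e-04, 6.91e-04 and 2.27e-05. *DAT*, the transporter that takes up dopamine, was higher by a log2 of 2.02 (SE 0.23), and *VAChT* and *ChAT* were not past the threshold (0.21 and -0.08). The study took *DAT* as its marker of serotonergic neurons. Of 17 cell type markers tested beside the transmitter genes, *DAT* among them, 2 were called higher, 3 lower and 12 neither, so no monoamine is assigned. In *hth* cells 7.22% of the 10652 genes tested were called higher and 2.77% lower. *bsh* was higher by a log2 of 3.45 (SE 0.15) and *svp* by 1.23 (SE 0.17), and *vsx1* was lower (-0.75).

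The glial marker *repo* had a log2 fold change of 0.76 (SE 0.23, adjusted p 0.0218 by edgeR) in *hth* cells, and of 1.05, past the threshold, against cells of matched depth. Among the further transcription factors 2 were higher in *hth* cells, *cut* (1.45) and TfAP-2 (LOC410893, 0.79), and 5 were lower, led by *dachshund* (LOC411009, -1.27). The leading genes of the *hth* cells, of 158 that met the rule, were *bsh* itself, LOC727170 (2.82), the GATA-binding factor gene LOC100577332 (2.18), LOC552195 (1.99) and the cadherin gene LOC100578662 (1.73). LOC727170 and LOC552195 led the *bsh* cells as well, and these 2 cell sets share cells, as the counts of pairs below show. The GATA gene had 142 to 225 CPM in *hth* cells and 37.2 to 42.5 CPM in cells without *hth*.

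The *Lim3* cells carried the GABA genes most of all. *Gad1* was at 541 and 663 CPM in the *Lim3* cells of queens, 744 and 734 CPM in those of foragers and 638 and 458 CPM in those of nurses, 3.58 to 5.59 times its level in all kept cells of the same library. The lowest library still exceeded every *Gad1* level of all cells by far. The log2 fold change was 2.63 (SE 0.09, adjusted p 1.23e-10 by edgeR), and *VGAT* was higher too, with 157 to 199 CPM in *Lim3* cells and 74.6 to 88.3 CPM in all cells (log2 fold change 1.22, SE 0.05). *VAChT* (-1.08, SE 0.06) and *ChAT* (-0.80, SE 0.06) were lower, while *VGlut* (0.44) and *Vmat* (-0.39) were not past the threshold. In *Lim3* cells 3.63% of the 10574 genes tested were called higher and 8.30% lower. *PLCe* (-1.96), *mub* (-0.95), a second Kenyon cell gene, and *repo* (-0.95) were all lower. *hth* was higher by a log2 of 0.69 and *bsh* lower by a log2 of -1.35, and *vsx1* had a log2 fold change of 0.51, but 0.40 against cells of matched depth and 0.40 without nurse replicate 1, where it was not called.

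In *Lim3* cells 4 of the further transcription factors were higher, namely *runt* (LOC726124, 1.35), *earmuff* (LOC100577696, 0.68), *acj6* (LOC410657, 0.62) and TfAP-2 (0.58), and 4 were lower, led by *dachshund* (-2.03). *acj6* was not called against cells of matched depth (0.56). The leading genes, of 155, were LOC410694 (3.6), the homeobox gene Hmx (LOC102656029, 3.34), *Gad1*, the LIM homeobox gene ISL-1 (LOC100577472, 2.46), known in flies as *tailup*, and a Sox-21-like gene (LOC102653993, 2.18). Hmx had 46.8 to 64.5 CPM in *Lim3* cells and 4.86 to 6.89 CPM in cells without *Lim3*, and ISL-1 had 157 to 258 CPM in *Lim3* cells and 28.8 to 53.4 CPM in cells without *Lim3*. Hmx, ISL-1 and the Sox-21-like gene encode transcription factors.

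The *vsx1* cells carried the genes of Kenyon cells, and none of the 6 transmitter genes was called higher in them. *PLCe* was at 6379 and 9241 CPM in the *vsx1* cells of queens, 9502 and 9227 CPM in those of foragers and 8438 and 7149 CPM in those of nurses, 1.51 to 1.63 times its level in all kept cells. The log2 fold changes over cells without *vsx1* were 1.38 (SE 0.06, adjusted p 4.05e-07 by edgeR) for *PLCe* and 0.90 (SE 0.05, adjusted p 1.11e-06 by edgeR) for *mub*. As a set, the *vsx1* cells of the whole brain therefore go against the label of an optic lobe factor. *Gad1* (-0.78) and *Vmat* (-0.75) were lower in *vsx1* cells, and *ChAT* (0.24) and *VAChT* (0.21) were not past the threshold. In *vsx1* cells 4.26% of the 10606 genes tested were called higher and 10.7% lower. *bsh* (-1.59), *hth* (-1.24), *Lim1* (-1.06) and *svp* (-0.67) were lower, and *svp* was not called against cells of matched depth.

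The further transcription factors split in *vsx1* cells, with 3 higher and 7 lower. *dachshund* (1.28), the second Pax-6 gene (LOC724238, 1.15) and *Mef2* (LOC413946, 0.98) were higher, and all 3 of them were lower in *bsh* and *hth* cells. Among the lower ones were the first Pax-6 gene (LOC724146, -1.30) and *acj6* (-1.75), and *Dll* (-0.56) was not called against cells of matched depth. The leading genes, of 250, were the thrombospondin domain gene LOC409970 (1.60), the transmembrane protein gene LOC725318 (1.60), the long noncoding RNA LOC102656910 (1.44), *PLCe* and LOC552578 (1.36). The folds of these genes were smaller than those that led the *bsh*, *hth* and *Lim3* cells.

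Summed, the *svp* cells were rich in RNA of the glial gene *repo*, though most of them were not *repo*-rich. The *repo*-rich ones and the others differed in transmitter genes. *repo* was at 475 and 399 CPM in the *svp* cells of queens, 173 and 353 CPM in those of foragers and 195 and 315 CPM in those of nurses, with a log2 fold change of 2.10 (SE 0.27, adjusted p 2.90e-04 by edgeR). Cells with 3 or more *repo* UMIs were 16.3 to 28.7% of the *svp* cells of a library and 2.16 to 5.27% of all kept cells. Of 2300 *svp* cells, 591 were *repo*-rich and 1709 were not. *VGlut* (0.76, SE 0.10) and *Vmat* (0.55, SE 0.11) were higher in *svp* cells, and *VAChT* (-1.18, SE 0.12) and *ChAT* (-0.95, SE 0.13) were lower. The levels of these 2 higher genes differed between the *repo*-rich *svp* cells and the others, although 933 of the 1573 *Vmat* UMIs lay in the others. *VGlut* was at 98.5 to 122 CPM in the *svp* cells with fewer than 3 *repo* UMIs, above all kept cells in 6 of 6 libraries, but at 13.8 to 60.2 CPM in the *repo*-rich ones, above all kept cells in 1 of 6. *Vmat* was at 75.6 to 140 CPM in the *repo*-rich *svp* cells, above all kept cells in 6 of 6 libraries, and at 29.9 to 70.1 CPM in the others, above in 4 of 6. The call of *Vmat* was lost without nurse replicate 2 and without queen replicate 1, where the log2 fold changes were 0.50 and 0.49.

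In *svp* cells 5.46% of the 10577 genes tested were called higher and 3.41% lower. *hth* was higher by a log2 of 1.51 (SE 0.10) and *Lim3* by 0.60 (SE 0.10), and *bsh* was lower (-1.31). The call of *Lim3* was lost in cells with 3 or more *svp* UMIs (0.49, adjusted p 0.0314 by edgeR). Of the further transcription factors 3 were higher, sloppy paired (1.21), *Dll* (1.09) and *bric-a-brac* (LOC725189, 0.64), and 3 were lower. The leading genes, of 197, were LOC406142 (3.41), the long noncoding RNA LOC100578835 (3.24), the solute carrier gene LOC410862 (3.08), LOC724971 (2.84) and the carcinine transporter gene LOC412540 (2.84). LOC406142 encodes hymenoptaecin, an antimicrobial peptide of the immune response, and it was at 464 and 853 CPM in the *svp* cells of queens, against 1.03 and 1.28 CPM in those of foragers and 3.07 and 0.848 CPM in those of nurses. Its level in cells without *svp* was 24.2 and 63.2 CPM in queens, against 0.787 and 1.13 CPM in foragers and 0.661 and 0.50 CPM in nurses. The place of this gene at the head of the list thus rested on the queen libraries, whereas LOC410862 had 48.2 and 72.9 CPM in the *svp* cells of queens, 38.2 and 82.3 CPM in those of foragers and 51.4 and 73.2 CPM in those of nurses.

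Within the *repo*-rich cells *svp* also separated the kinds of bee, though not past an adjusted threshold. It reached 2 UMIs in 16.4 and 28.5% of cells in queens, against 5.84 and 10.8% in foragers and 10.0 and 14.4% in nurses. Its level in the sums of these cells was 111 and 195 CPM in queens, against 53.0 and 80.6 CPM in foragers and 72.2 and 101 CPM in nurses. Queens lay above workers in both without overlap. Both gave the smallest p that the two-sided exact permutation test allows (0.067, and 0.156 and 0.233 after adjustment over the 7 members). How many of all genes do so in these cells was not counted. The *eya* share in these cells also lay higher in queens without overlap (exact permutation p 0.067). Its CPM overlapped, with means of 42.3 in queens and 47.5 in workers. Median depth in *repo*-rich cells was 5249 and 5100 UMIs for queens and ran from 4197 to 4846 for worker libraries. The part of depth in these shares was not tested. The share of all kept cells with 3 or more *svp* UMIs was higher in queens. It was 0.922 and 0.931% in queens, against 0.276 and 0.534% in foragers and 0.463 and 0.715% in nurses. This order depended on the cutoff. At 1 or more UMIs the libraries overlapped, with means of 8.84% in queens and 10.5% in workers. At 2 or more UMIs in thinned cells the means were 0.338 and 0.372%. The queen libraries were deeper, and the part of depth in the order at 3 or more UMIs was not tested. In the *PLCe*-rich cells the share with 2 or more was lower in queens. It was 0.199 and 0.0597% in queens, against 0.469 and 0.429% in foragers and 0.539 and 0.613% in nurses. The share at 3 or more UMIs and this one gave the smallest exact permutation p of 0.067 (0.156 and 0.117 after adjustment over the 7 members). The second rests on few *svp* cells, as the queen libraries held 2007 and 1676 *PLCe*-rich cells. The CPM of *svp* in the *PLCe*-rich cells overlapped (exact permutation p 0.267). It was 8.54 and 3.71 in queens, 7.25 and 12.9 in foragers and 8.20 and 10.7 in nurses. *hth* in the *repo*-rich cells was at 113 and 121 CPM in queens, against 72.5 and 95.1 CPM in foragers and 82.7 and 87.6 CPM in nurses (exact permutation p 0.067, adjusted 0.233), and *vsx1* overlapped. The level of *repo* did not separate queens from workers in bulk, with 285 and 200 CPM in queens, against 215 and 377 CPM in foragers and 222 and 293 CPM in nurses (log2 fold change -0.18, adjusted p 0.644 by edgeR). Of the hemocyte genes, *hml* overlapped in bulk (log2 fold change -0.32), and *Fer2LCH* had 1028 and 980 CPM in queens, against 747 and 815 CPM in foragers and 832 and 758 CPM in nurses, without overlap but not called (0.36, adjusted p 0.103 by edgeR). In *svp* cells *Fer2LCH* had a log2 fold change of 0.47, and of 0.52, past the threshold, against cells of matched depth. The part of hemocytes in the bulk level of *svp* was not tested.

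**Figure D3:**
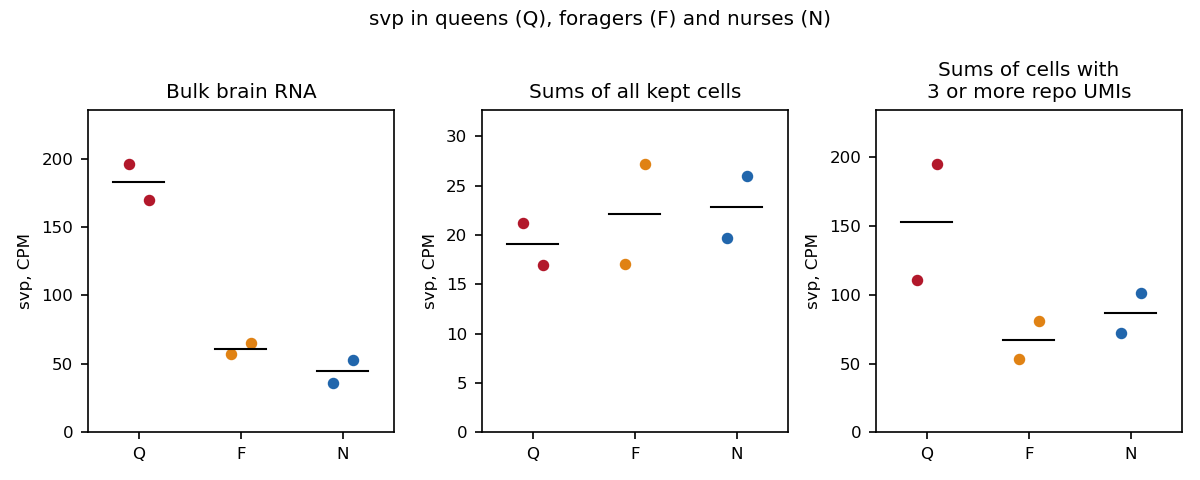
Level of *svp* in CPM (vertical axes) in bulk RNA and in sums of all kept cells, both scaled with TMM factors, and in sums of the cells with 3 or more *repo* UMIs, without TMM factors, for queens (Q), foragers (F) and nurses (N). Points are libraries and bars are means of 2 libraries. Queens lie above all worker libraries in bulk and in the *repo*-rich cells (111 and 195 CPM) but not in the sums of all cells.

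The *eya* cells differed in few genes from the cells without *eya*. None of the 6 transmitter genes passed the threshold, with log2 fold changes between -0.12 and 0.19, and 0.561% of the 10514 genes tested were called higher and 1.17% lower, the fewest of the 6 members fitted. None of the other members was called, except that *bsh* (-0.47) was called lower against cells of matched depth (-0.62). Of the further transcription factors the first Pax-6 gene (0.66, SE 0.09) and *acj6* (0.55, SE 0.10) were higher, and no factor was lower, although *dachshund* (-0.51) and the Kenyon cell gene *PLCe* (-0.57) were called lower against cells of matched depth. The 5 leading genes, of 6 that met the rule, were LOC413759 (SCY1-like protein 2, 0.69), LOC100577632 (0.69), LOC102655228 (0.62), LOC552709 (polypyrimidine tract-binding protein 2, 0.54) and LOC726842 (the optomotor-blind gene, 0.52), and LOC102655228, LOC552709 and LOC726842 were not called against cells of matched depth. LOC552709 was not called without queen replicate 2 either, nor LOC726842 without nurse replicate 2 or forager replicate 2.

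**Figure D4:**
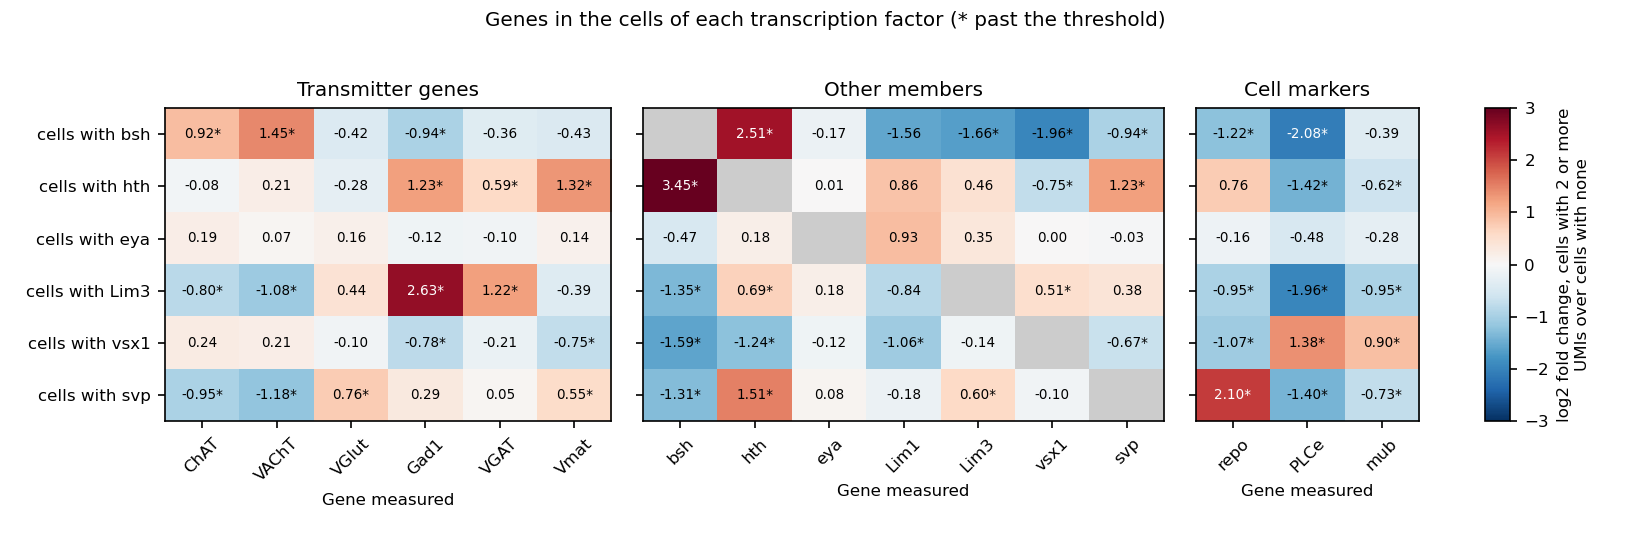
Log2 fold change (colour and printed value) of transmitter genes, of the other members and of 3 cell markers in the cells with 2 or more UMIs of each member over the cells with none. Asterisks mark genes past the threshold and grey squares mark the member itself. *Gad1* reaches 2.63 in *Lim3* cells, *VAChT* 1.45 in *bsh* cells, *repo* 2.10 in *svp* cells and *PLCe* 1.38 in *vsx1* cells, while nothing in the row of *eya* is marked.

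Of the 21 pairs of members, *bsh* with *hth* shared cells most often. The cells with 2 or more UMIs of both numbered 66 and 103 in queens, 132 and 117 in foragers and 141 and 130 in nurses, 689 in all, against 104 expected if the genes were independent among cells of like depth (10 classes of a library's cells by total UMIs). The observed number was 4.12 and 7.25 times the expected in queens, 9.38 and 6.25 times in foragers and 6.72 and 6.43 times in nurses. All 6 libraries showed a clear excess, with a median of 6.57. *hth* was found in 48.9 and 55.4% of the *bsh* cells of queens, 63.5 and 61.6% of those of foragers and 72.3 and 60.5% of those of nurses, and *bsh* in 4.46 to 12.2% of the *hth* cells. The share of *bsh* cells with *hth* was lower in both queen libraries than in all worker libraries (means 52.1% in queens and 64.5% in workers, exact permutation p 0.067, two-sided, the smallest allowed). As *bsh* itself was lower in queens in these libraries, and the queen cells were deeper, the part of depth in this difference was not tested.

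*hth* with *svp* was the other pair in excess in every library by 2 times or more. The shared cells numbered 139 and 95 in queens, 35 and 93 in foragers and 69 and 88 in nurses, 519 in all against 203 expected. The observed number was 2.57 and 3.25 times the expected in queens, 2.36 and 2.46 times in foragers and 2.49 and 2.25 times in nurses. Queens gave the 2 largest ratios. In *svp* cells *hth* was found in 29.8 and 26.0% in queens, 14.2 and 21.9% in foragers and 21.9 and 18.2% in nurses. Among cells with fewer than 3 *repo* UMIs the median ratio was 2.01, beside 2.48 among all kept cells, so an excess was left outside the *repo*-rich cells.

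Other pairs kept apart. *bsh* with *vsx1* was found in 73 cells against 318 expected, at 0.106 to 0.350 times the expected number, and *hth* with *vsx1* in 901 cells against 1738, at 0.456 to 0.581 times. *bsh* with *Lim3* was found in 12 cells against 51.8 expected and *bsh* with *svp* in 11 against 37.3, and no library exceeded the expected number for either pair. *vsx1* with *svp* ran at 0.572 to 0.852 times the expected number. The median ratios of these 5 pairs were below 1 under every alternative run, at most 0.964. *bsh* with *eya* also ran below 1 in all 6 libraries, at 0.585 to 0.838 times. The remaining pairs had median ratios of 1.45 for *Lim3* with *svp*, 1.34 for *hth* with *Lim3*, 0.900 for *Lim3* with *vsx1*, and 0.780 to 1.18 for the 5 pairs that hold *eya*. These moved with the setting. Without depth classes the medians of these pairs and of *bsh* with *eya* were 1.26 to 2.31. The median was 2.95 for *hth* with *Lim3* (32 cells), 1.65 for *Lim3* with *vsx1* (37 cells) and 1.55 for *eya* with *vsx1* (40 cells) in thinned cells, and 0.411 for *Lim3* with *svp* (6 cells) and 3.61 for *bsh* with *eya* (8 cells) in cells below the median UMIs. No order is read from them. The 6 pairs with *Lim1* held 12 cells between them and are not read.

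**Figure D5:**
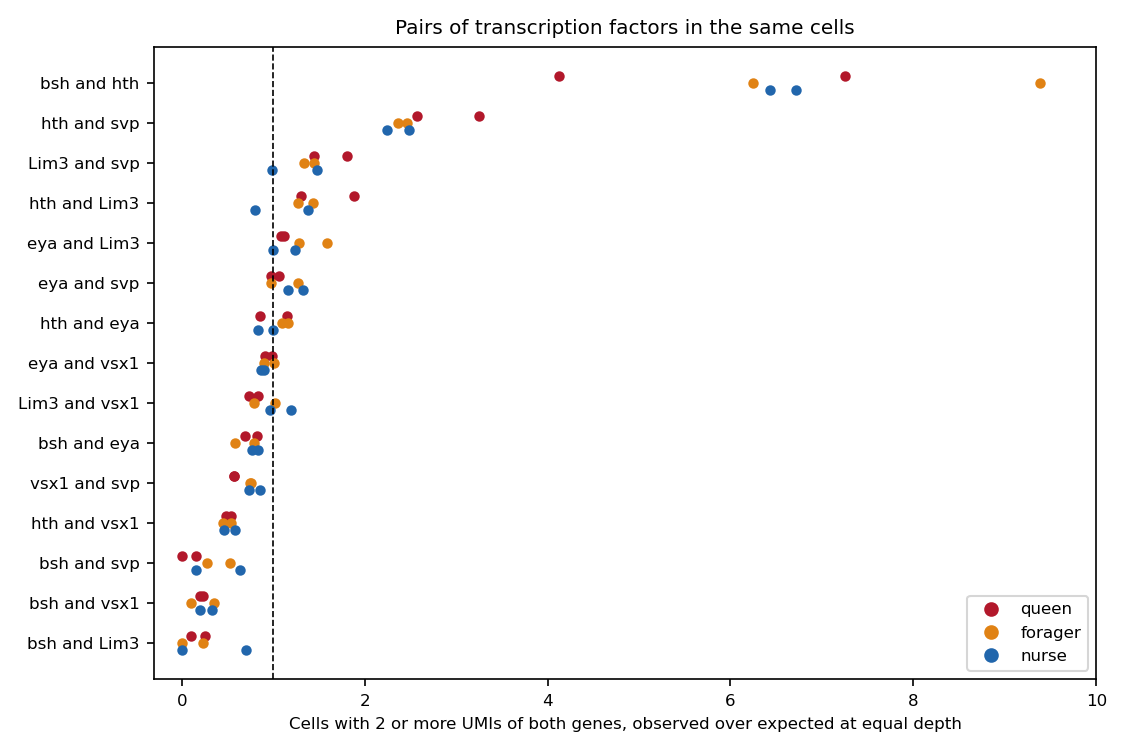
Cells with 2 or more UMIs of both genes of a pair, as observed over expected at equal depth (horizontal axis), for the 15 pairs without *Lim1*. Each point is a library of queens (red), foragers (orange) or nurses (blue) and the dashed line marks 1. *bsh* with *hth* lies at 4.12 to 9.38 and *hth* with *svp* at 2.25 to 3.25, and 5 pairs lie below 1 in all 6 libraries beside *bsh* with *eya*.

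The *hth* cells with *bsh* and those without it differed in transmitter genes. The 689 cells with *bsh* and *hth* had 342 to 774 CPM of *VAChT* and 146 to 268 CPM of *ChAT*, above all kept cells in 6 of 6 libraries, and 33.1 to 62.9 CPM of *Gad1*, below all kept cells in each. These are cholinergic genes with little of the GABA gene. The 440 *bsh* cells without 2 UMIs of *hth* had 487 to 805 CPM of *VAChT* and 185 to 248 CPM of *ChAT*, much like the cells with both. The 6306 *hth* cells without *bsh* and *svp* had 218 to 375 CPM of *Gad1*, 109 to 128 CPM of *VGAT* and 91.2 to 210 CPM of *Vmat*, each above all kept cells in 6 of 6 libraries, with 148 to 314 CPM of *VAChT*. So the excess of *Gad1*, *VGAT* and *Vmat* in *hth* cells lay in the cells without *bsh*.

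The 519 cells with *hth* and *svp* had 184 to 517 CPM of *Gad1* and 88.1 to 157 CPM of *VGAT*, above all kept cells in 6 of 6 libraries, together with 260 to 964 CPM of *repo*. The share of them with 3 or more *repo* UMIs was 31.4 to 51.6%, more than in the *svp* cells as a whole. The *Gad1* signal and the *repo* signal lay in different cells. The 294 cells with fewer than 3 *repo* UMIs had 241 to 924 CPM of *Gad1* and 107 to 279 CPM of *VGAT*, whereas the 225 *repo*-rich ones had 49.6 to 297 CPM of *Gad1*, above all kept cells in 1 of 6 libraries, and 14.4 to 79.1 CPM of *VGAT*, below in all 6. The pan-neuronal gene *elav* followed the same split, with 3025 to 4236 CPM in the 294 cells and 543 to 2450 CPM in the 225. These pair values are descriptions of cells that were chosen by their counts, and no test was made on them.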

How the data were processed

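The authors ran Cell Ranger 3.1.0 for the 6 single-cell libraries and deposited UMI counts per gene and cell barcode, without normalization. The authors deposited expected counts from RSEM for the 6 bulk libraries, after Trimmomatic 0.39 and STAR, not scaled for library size. Cells were kept by its limits: 200 to 5000 genes, at least 500 UMIs, under 15% mitochondrial UMIs, and a UMI ceiling for each kind of bee, placed 1.5 interquartile ranges beyond its upper quartile. The mitochondrial limit took the 450 features with the files' prefix, of which 13 lie on the mitochondrial genome, and an alternative used those 13. No doublet caller was run, so the upper limits on genes and UMIs were the only guards, and pairs were recounted in cells below the median UMIs. Any 2 libraries shared 77 to 130 kept barcodes.

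UMIs were summed per library, expected counts were rounded, and both were compared in edgeR 4.0.16 (R 4.3.3) with TMM, filterByExpr and the two-sided quasi-likelihood test of 3 kinds of bee in 1 fit, with Benjamini-Hochberg adjustment over all genes tested. Workers are the mean of nurses and foragers. Calls needed an adjusted p under 0.01 and a log2 fold change over 1 (bulk) or 0.5 (single cells) in size. Cells with 2 or more UMIs of a member were set against cells with none, with the library as a block. Shares were compared by exact permutation tests over libraries and pairs of members were only described. Replicates of the same kind of bee differed by more than sampling noise (chi-square per degree of freedom 43.5 to 165 over genes). Alternatives were DESeq2 1.42.0, its size factors, no filter on low counts, the replicate number as a block, other UMI limits, thinned or depth-matched cells and each library left out. Counting in Python 3.11.15 preceded these steps. The p-values measure the spread between these libraries, and the bulk reads carry no molecular identifiers.

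The members and lists were chosen with earlier results of these data known. The text names all 7 members, the 6 transmitter genes, further transcription factors past the threshold, and for each member's cells the 5 genes with the largest log2 fold change among those called, higher in all 6 libraries and averaging 50 CPM or more. The Kenyon cell rule fixed at first, 3 or more UMIs of both *PLCe* and *mub*, took 59.9 to 81.2% of cells, so the 10% of cells with the most *PLCe* per UMI were added after seeing the data. The recount without *repo*-rich cells and the levels in *repo*-rich cells were added then too.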

Additional observations from a re-analysis of the deposited data

Results flagged for a closer look

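In the single-cell sums, *vsx1* had 127 and 127 CPM in foragers and 107 and 127 CPM in nurses. Nurse replicate 1 stood below the other 3 worker libraries, with a gap to its nearest neighbour of 0.965 of the whole range, past Dixon's limit for 4 samples. Of 21 such groups tested this was the 1 past the limit, and chance sets apart about 1 in 20. Without that library, the log2 fold change of *vsx1* between queens and workers was 0.50 and the call was lost.

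*vsx1* was higher in queens than in workers in the single-cell sums and lower in bulk, with no overlap in either assay. The log2 fold changes were 0.56 in the single-cell sums and -0.59 in bulk, 1.15 apart. The difference between the assays was not tested.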

How the results depend on the processing

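Bulk *svp* between queens and workers kept its call under every alternative run (log2 fold change 1.70 to 1.96 with each library left out). With DESeq2, 2 members were called in bulk between queens and workers (*Lim1*, adjusted p 0.00265, beside *svp*) and 2 between queens and foragers (*hth* beside *svp*), and 2 in the single-cell sums between queens and workers, where *bsh* (adjusted p 0.00271) joined *vsx1*. With each library left out, 0 to 1 members were called in bulk between queens and foragers, 0 to 2 in the single-cell sums between queens and workers, and 0 to 1 there between queens and nurses, and thinned sums called 1 between queens and foragers. The log2 fold changes of single-cell sums between queens and workers crossed 0 for *hth* (-0.15 to 0.18), *eya* (-0.01 to 0.16) and *Lim1* (-0.14 to 0.01). Over all genes, leaving out a library gave 472 to 883 calls in bulk between queens and workers, 331 to 870 between queens and foragers, 347 to 662 between queens and nurses and 1 to 6 between foragers and nurses. In the single-cell sums it gave 637 to 1645, 72 to 1372, 54 to 1160 and 1 to 14. Between foragers and nurses the bulk count was 6 with DESeq2's size factors, 10 without a filter and 98 with DESeq2, and the single-cell count was 475 with DESeq2 and 5 thinned. DESeq2 called 2219 genes between queens and foragers and 2203 between queens and nurses. *eya* cells had 112 genes called at 3 or more UMIs.

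Replicate numbers did not pair the libraries (correlations of deviations from -0.18 to 0.03). With the number as a block, *svp* in bulk kept its call between queens and workers (adjusted p 0.00106), but no member was called between queens and nurses in the single-cell sums (0 calls, *vsx1* adjusted p 0.0118), with 891 genes called there and 4 between foragers and nurses. Crossing the queen numbers gave 1464 genes between queens and foragers, against 930 with the block as labelled.

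Differences in the share of cells, in percentage points, changed sign for *hth* (0.528 at 1 UMI, 0.0612 at 3, 0.134 with the other mitochondrial limit, and -0.971 to 0.882 with a library left out), *Lim3* (-0.452 at 1 UMI), *svp* (-1.70 at 1 UMI, -0.0337 thinned) and *bsh* (-0.362 to 0.0755 with a library left out). The median ratio of *bsh* with *hth* was 3.19 at 1 or more UMIs, 8.40 thinned and 9.74 without depth classes, and that of *hth* with *svp* was 1.42, 4.44 in cells below the median UMIs, 3.15 without depth classes and 2.01 without *repo*-rich cells. The cause of these changes was not tested. With 2 libraries per kind of bee the spread is poorly known, and *Lim1* and bulk *bsh* rest on few counts. The part of depth in shares near 1 or 2 UMIs was not tested.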

Other observations

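Of the further transcription factors, 1 was called in each assay between queens and workers, where 9.71% of all genes tested were called in bulk and 15.4% in the single-cell sums. In bulk, *dachshund* (LOC411009) was the 1 of 13 tested that was called between queens and workers, with 44.0 and 33.6 CPM in queens, against 78.5 and 88.0 CPM in foragers and 83.3 and 88.8 CPM in nurses (log2 fold change -1.11, adjusted p 0.00157 by edgeR). In the single-cell sums, *cut* (LOC551460), which was high in *bsh* and *hth* cells, was the 1 of 14 called, with 49.2 and 41.1 CPM in queens, against 78.2 and 61.7 CPM in foragers and 85.6 and 91.1 CPM in nurses (log2 fold change -0.80, adjusted p 0.00284 by edgeR). Neither gene was called in the other assay. Of the transmitter genes, *VAChT* was lower in queens in bulk, with 42.7 and 29.9 CPM in queens, against 86.9 and 87.9 CPM in foragers and 65.4 and 110 CPM in nurses (log2 fold change -1.26, adjusted p 0.00825 by edgeR).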
